A study of Mus musculus with 7 samples.

Results

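C-MYC and SOX2 regions with POLII replicate 2 are stretches of the mouse genome where both replicates of C-MYC and both replicates of SOX2 had a peak in iMOP cells, where RNA polymerase II (POLII) had a peak in its second replicate, and where it had none in its first. The members were chosen by the presence or absence of peaks in these 6 lists. Peaks of the 4 factor lists that shared 1 bp or more were merged into 70193 regions. Of these, 14495 held a peak of all 4 factor lists, and 10461 of the 14495 were members. The other regions with all 4 factor lists were 2576 with a peak of both POLII replicates, 211 with a peak of POLII replicate 1 alone and 1247 with no POLII peak. The members are thus 72.2% of the regions of all 4 factor lists, a share that the rule itself fixes and from which nothing is read here.

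iMOP (immortalized multipotent otic progenitor) cells are a mouse line derived with a *c-Myc* retrovirus from SOX2-expressing progenitors of the embryonic inner ear, and the peaks do not tell C-MYC of the virus from that of the cell. All 6 samples came from otospheres kept floating in DMEM/F12 to which B27 and bFGF (20 ng/ml) were added, and each of 3 antibodies was used on 2 replicates. The antibodies were clone 4H8 against POLII, N-262 against c-Myc and clone 6F1.2 against Sox2. All samples share one condition, so the comparisons are between antibodies and between kinds of region.

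C-MYC is a basic helix-loop-helix leucine zipper factor that pairs with MAX and binds near the start sites of many active genes. SOX2 is a high-mobility-group factor that maintains neural and sensory progenitors, including those of the inner ear. POLII transcribes protein-coding genes and gathers at their promoters, but it is also found at active enhancers. The study used POLII to mark promoter regions and took genes with POLII and a factor at the promoter as targets. The peak lists name no genes, so the regions are given here by position on build mm9 and by what the 3 proteins showed there.

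Across the 6 lists, the peaks numbered 26637 to 53528 and held 1705241 to 4488517 tags. Tags in a peak are raw counts. To compare lists, the tags of all peaks of a list on a region were divided by the length of those peaks and by the tags in all peaks of the list, which is called the level here and is given in tags per kb of peak per 1000000 tags in peaks. POLII replicate 1 stood apart from the other lists by its 23 tags in the median peak, against 35 to 68. Chromosome X held 0.435% of its peaks and 1.82% to 2.21% of those of the other 5 lists. The part of this in the results was not tested. SOX2 replicate 1 also stood apart, as its levels and summits at the members were closer to those of POLII replicate 2 than to those of SOX2 replicate 2. The labels of these libraries were not checked against reads or input here, so each SOX2 result is given by replicate, and SOX2 replicate 1 is the library labelled so. By the rule, the members have no POLII replicate 1 peak. Of the members, 253 (2.42%) lay on chromosome X, and of the regions with both POLII replicates 12 (0.466%) did. On chromosome X the members made up 89.1% of the regions of all 4 factor lists, and on the autosomes 68.7% to 75.5%.

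The members took a large part of each list. They held 25.1% and 24.0% of the peaks of C-MYC replicates 1 and 2, 26.4% and 39.4% of those of SOX2 and 33.3% of those of POLII replicate 2. Their share of the tags was larger in every one of these lists. It was 40.6% and 40.5% for C-MYC, 42.0% and 49.9% for SOX2 and 43.0% for POLII replicate 2. The members were chosen by peaks in these same lists, and no other kind of region was set beside them. Nothing is therefore read from the larger share of tags. Nearly all members carried a single peak of each list, from 10291 members for C-MYC replicate 1 to 10420 for SOX2 replicate 2, and the rest carried 2.

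The median member was 1320 bp long, with the middle 50% from 983 to 1747 bp. The peaks of the 5 lists overlap at the members because the rule asks for it, so their overlap is given as a description. In 10262 members (98.1%) the strongest peaks of all 5 lists shared a common core, whose median length was 685 bp, or 54.9% of the member. At the regions with both POLII replicates, 2530 (98.2%) had such a core, with a median of 794.5 bp. The median overlap with the POLII replicate 2 peak was 954 bp, and only 2 members overlapped it by less than 100 bp. Regions with both POLII replicates had a median length of 1431.5 bp, and regions of all 4 factors without POLII 899 bp. These lengths are given with no test, because regions of the same libraries are not replicates. A region also grows with the peaks merged into it, which came from the same 4 factor lists in each kind of region.

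The members were spread singly along the chromosomes. The median gap to the nearest other member was 37567 bp. Another member lay within 5 kb of 656 members (6.27%) and within 1 kb of 26.

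At the edge of the rule, the member with the smallest overlap with POLII replicate 2 lay at chr12:54548930-54549587 and shared 13 bp with that peak. The next lay at chr2:115870739-115871351 and shared 49 bp. The member closest to a POLII replicate 1 peak, at chr4:22022300-22023301, was 2 bp away from it, and the next, at chr2:103530171-103531929, was 11 bp away. Just outside the rule, regions at chr17:29418927-29420125 and chr11:107826472-107827786 shared 2 and 3 bp with a POLII replicate 1 peak. The region without POLII that came closest to a POLII replicate 2 peak, at chr5:119041384-119042582, missed it by 17 bp. Few members were near this edge. A POLII replicate 1 peak lay within 100 bp of 50 members (0.478%) and within 1 kb of 543 (5.19%), and the median gap was 13152 bp. For the regions without POLII these were 0.962% and 6.42%, with a median gap of 12407 bp, so the distance is not read as particular to the members.

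C-MYC and SOX2 levels at the members were higher than at regions that both factors share without POLII, in all 4 samples. The median level at the members was 28.9 in C-MYC replicate 1 and 27.4 in replicate 2. Without POLII it was 16.9 and 15.9, so that the members were 1.71 and 1.73 times as high. SOX2 replicate 1 had a median of 28.4 at the members and 16.0 without POLII, or 1.78 times. SOX2 replicate 2 had 38.5 and 31.1, or 1.24 times. The lowest level of SOX2 replicate 2 was 18.3 at the members and 19.5 without POLII, against 8.42 and 8.51 in SOX2 replicate 1. The part of this in the smaller ratio was not tested. Each of the 4 samples was higher at the members, but the size of the excess was alike in the C-MYC replicates (1.72 ± 0.01, SD, n = 2) and not in the SOX2 replicates (1.51 ± 0.38, SD, n = 2). As counts, the median member held 85 and 95 C-MYC tags, 85 and 69 SOX2 tags and 114 POLII tags. At that depth the exact 95% Poisson interval of a single region ran from 67.9 to 105 tags for 85 tags and from 53.7 to 87.3 for 69, which covers counting error only. The depositors' fold enrichment of C-MYC did not share the difference. Its median was 11.66 and 11.38 at the members and 11.67 and 11.39 without POLII. For SOX2 it was 9.94 against 8.67 in replicate 1 and 6.62 against 6.66 in replicate 2.

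Regions where POLII was also found in replicate 1 had still more POLII replicate 2. Their median POLII level was 44.4, which was 1.90 times the 23.4 of the members. C-MYC was 1.14 and 1.15 times as high there as at the members, and SOX2 replicate 1 was 1.47 times as high. SOX2 replicate 2 went the opposite way, with 35.0 against 38.5 at the members. The SOX2 replicates therefore placed the members on different sides of the regions with both POLII replicates, and no direction for SOX2 holds over its replicates. These medians compare kinds of region within each sample. Regions of one sample are not replicates, so the medians are given as descriptions. Between antibodies, with 2 samples each, no exact two-sided permutation test can go below p = 0.333. The peaks of POLII replicate 1 themselves held a median of 30 tags at the regions with both POLII replicates.

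**Figure D1:**
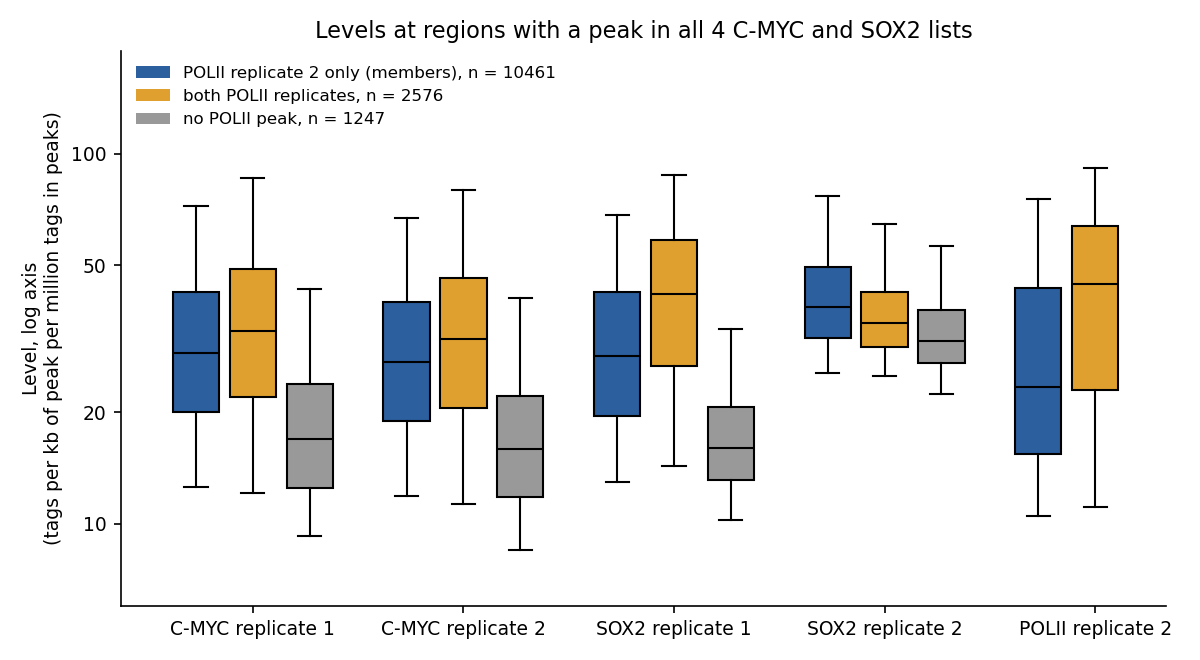
Level of each list (vertical axis, log scale, tags per kb of peak per 1000000 tags in peaks) at the 10461 members, the 2576 regions with both POLII replicates and the 1247 regions without POLII. Lines are medians, boxes span the middle 50% of regions and whiskers the 5th to 95th percentiles. The members lie above the regions without POLII in all 4 factor lists, and below the regions with both POLII replicates in every list but SOX2 replicate 2.

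The levels of the 2 C-MYC replicates rose and fell together across the members, and those of the 2 SOX2 replicates hardly did. Spearman's rho between the C-MYC replicates was 0.93 over the 10461 members. Between the SOX2 replicates it was 0.14. SOX2 replicate 1 followed POLII replicate 2 much more closely, with a rho of 0.79, while SOX2 replicate 2 had a rho of 0.07 with POLII. C-MYC stood between them, with 0.51 against POLII in both replicates, 0.56 and 0.57 against SOX2 replicate 1 and 0.28 and 0.29 against SOX2 replicate 2. These correlations are across regions, which share libraries and are not independent, and they carry no p. With undivided tags or with fold enrichment in place of the level, the rho between the SOX2 replicates was 0.35 in both cases, and that of SOX2 replicate 2 with POLII was 0.32 and 0.16. SOX2 replicate 1 remained closer to POLII than to its own replicate on these scales, at 0.86 and 0.67.

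The strongest regions show the same. The 1046 members with the highest level in C-MYC replicate 1 and the 1046 with the highest level in replicate 2 had 822 in common (78.6%). The top 1046 of the SOX2 replicates had 109 in common (10.4%). The top 1046 of SOX2 replicate 1 shared 669 members (64.0%) with the top 1046 of POLII replicate 2, and the top 1046 of SOX2 replicate 2 shared only 47 (4.49%). The lists compared are of equal size, and each is 10% of the members.

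The range of SOX2 replicate 2 was also narrow. Its level at the upper quartile of the members was 1.56 times that at the lower quartile, against 2.16 times in SOX2 replicate 1, 2.11 and 2.09 times in C-MYC and 2.81 times in POLII replicate 2. The lowest level of SOX2 replicate 2 at any member was 18.3. It was 8.42 in SOX2 replicate 1, 6.57 and 6.16 in C-MYC and 7.52 in POLII replicate 2. The part of this lowest level and of counting error in the narrow range and the low correlation was not tested. At the 1247 regions without POLII, the SOX2 replicates had a higher rho of 0.40. At the 2576 regions with both POLII replicates their rho was 0.22, and SOX2 replicate 1 had a rho of 0.89 with POLII replicate 2.

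**Figure D2:**
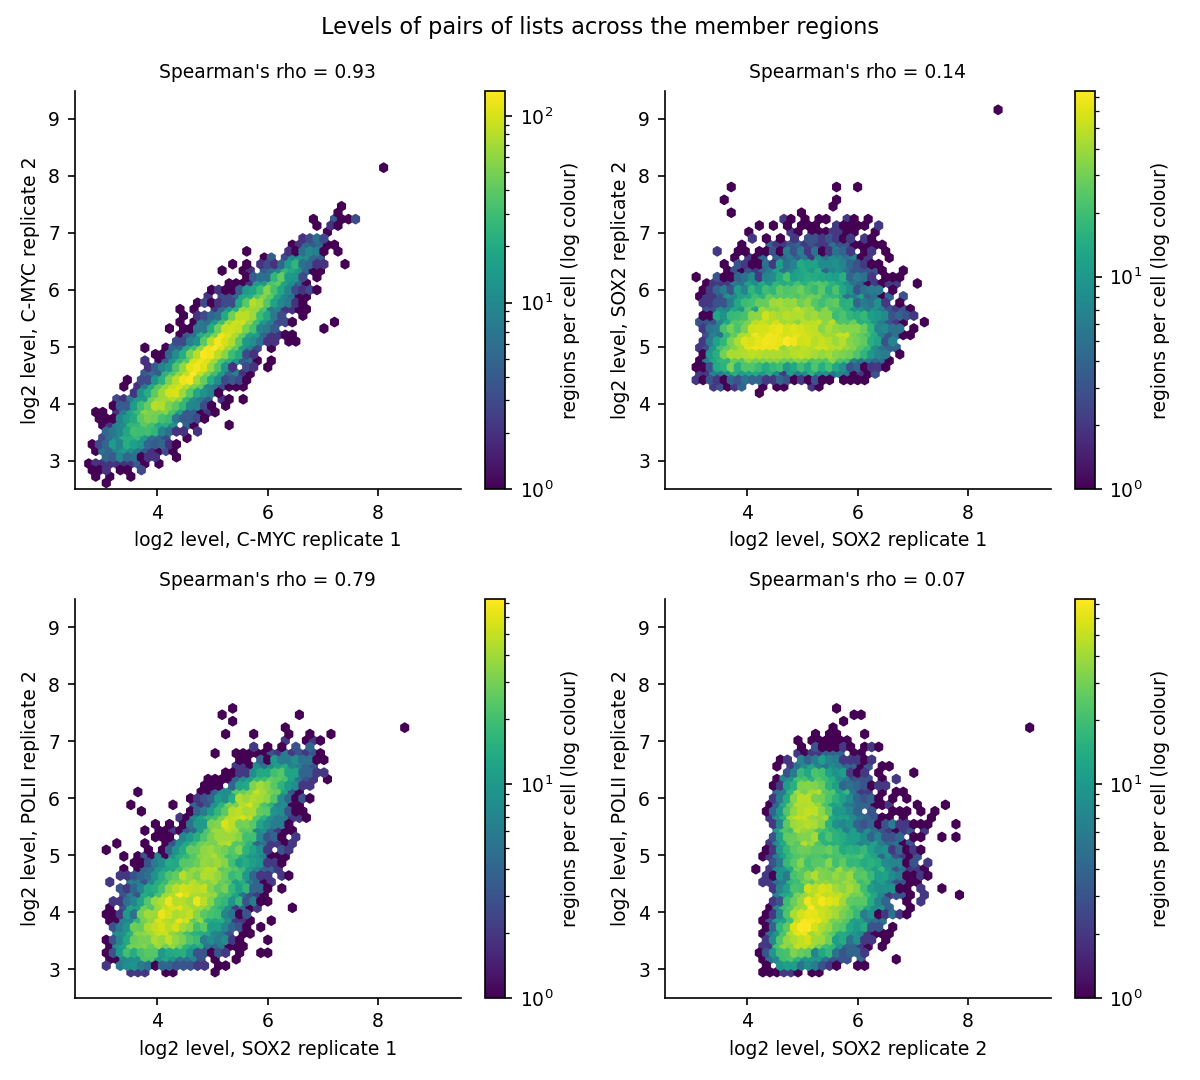
Each panel sets the log2 level of one list against that of another over the 10461 members (log2 of tags per kb of peak per 1000000 tags in peaks), with colour for the number of regions on a log scale. The C-MYC replicates lie along a line (rho 0.93), as do SOX2 replicate 1 and POLII replicate 2 (0.79), while the SOX2 replicates (0.14) and SOX2 replicate 2 with POLII (0.07) form clouds without a slope.

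POLII levels at the members were spread over a wide range with a long upper shoulder. On the log2 scale, 2227 members had a POLII level of 16 to 22.6, the fullest class of 0.5 log2 units. The number fell to 1336 at 32 to 45.3, was 1380 at 45.3 to 64, and then fell to 883 at 64 to 90.5. The members were therefore divided into quartiles of the POLII replicate 2 level, with limits at 15.4, 23.4 and 43.4.

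C-MYC rose with POLII in both replicates. From the lowest to the highest quartile its median level went from 19.2 to 39.1 in replicate 1 and from 18.1 to 36.7 in replicate 2, which is 2.04 and 2.03 times. SOX2 replicate 1 went from 17.6 to 51.5, or 2.92 times, while POLII itself went from 12.4 to 59.9. SOX2 replicate 2 had 34.5, 43.0, 42.8 and 36.3 from the lowest to the highest quartile, so it was highest in the middle and 1.05 times as high at the top as at the bottom. The replicates of SOX2 thus differed in course, and those of C-MYC did not. The median length of the members went from 975 bp in the lowest quartile to 1545 bp in the highest. Fold enrichment gave another picture for C-MYC. Its median was 12.6 and 12.4 in the lowest POLII quartile and 11.25 and 11.05 in the highest. For SOX2 replicate 2 it went from 7.16 to 5.92, and for SOX2 replicate 1 from 9.77 to 11.44. The background that fold enrichment refers to is not given in the sources used here.

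A POLII replicate 1 peak was more frequent where the POLII replicate 2 level was high. With the limits of the members' quartiles applied to all 13037 regions with the 4 factor lists and POLII replicate 2, a replicate 1 peak was present at 370 of 2986 regions in the lowest class, 291 of 2906 in the next, 604 of 3219 in the one after and 1311 of 3926 (33.4%) in the highest. Even in the highest class, most regions had no POLII replicate 1 peak.

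The summits of the 5 lists lay close together. The distance from the leftmost to the rightmost of the 5 summits had a median of 128 bp. It was at most 100 bp in 4177 members (39.9%) and at most 200 bp in 6734 (64.4%), and it exceeded 1 kb in 297 (2.84%). The C-MYC summits of the 2 replicates were 14 bp apart in the median member. The SOX2 summits of the 2 replicates were 61 bp apart, which was farther than either lay from C-MYC, since SOX2 replicate 1 lay 42 and 43 bp and SOX2 replicate 2 lay 52 and 53 bp from the C-MYC summits.

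Relative to the POLII replicate 2 summit, the closest factor was SOX2 replicate 1. Its median distance was 32 bp, and 81.6% of its summits were within 100 bp. Both C-MYC replicates had a median distance of 56 bp, with 68.0% and 67.5% within 100 bp. SOX2 replicate 2 was farthest, with 66 bp and 62.5%. The C-MYC replicates fell between the SOX2 replicates, so C-MYC and SOX2 did not differ beyond the spread of SOX2 (56 ± 0 bp against 49 ± 24 bp, SD, n = 2 each, exact two-sided permutation test p = 1, where the smallest possible p is 0.333). SOX2 replicate 1 was the nearest of the 4 summits to the POLII summit in 43.0% of the members, and each of the others in 17.3% to 22.2%, with ties shared out.

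**Figure D3:**
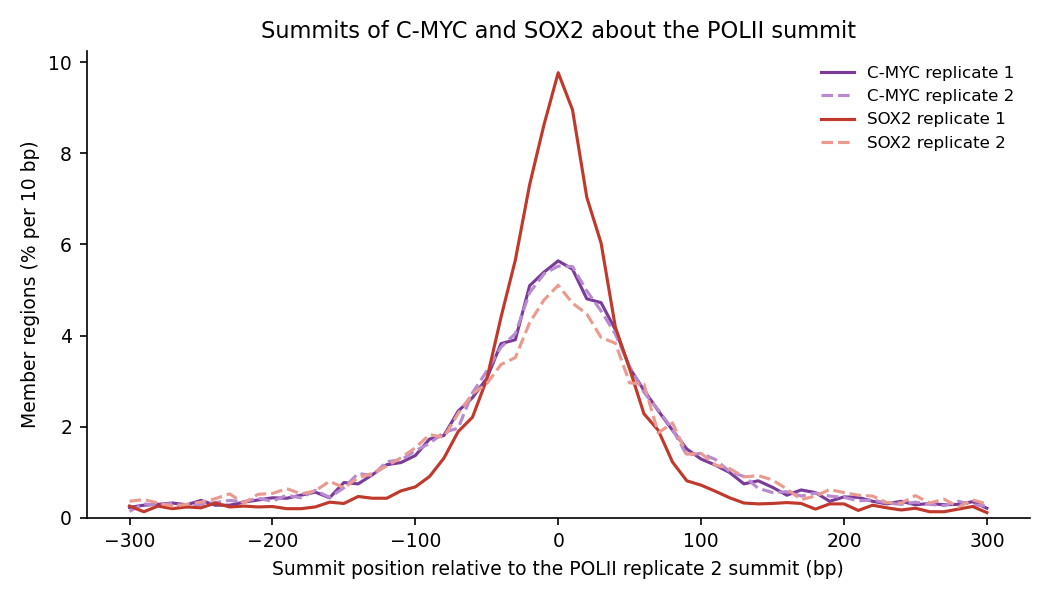
Share of the 10461 members (vertical axis, % per 10 bp) by the position of each factor summit relative to the POLII replicate 2 summit (horizontal axis, bp, in genome direction). All 4 curves are centred on the POLII summit, and that of SOX2 replicate 1 is the tallest and narrowest (median distance 32 bp, against 56 bp for both C-MYC replicates and 66 bp for SOX2 replicate 2).

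These distances changed with the POLII level in opposite ways. In the lowest POLII quartile the medians were 43 and 44.5 bp for C-MYC and 42 and 52 bp for SOX2. In the highest quartile C-MYC lay at 92 and 93 bp and SOX2 replicate 2 at 102 bp, while SOX2 replicate 1 lay at 21 bp. SOX2 replicate 1 had the nearest summit in 29.0% of the members in the lowest quartile and in 65.6% in the highest. Thus in the members with the most POLII, C-MYC in both replicates and SOX2 in one replicate were offset from POLII by a similar distance.

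The sides of the offset summits are given as a description, since all are measured from the same POLII summit and summits that lie close together mostly fall on one side of it. Where the summits of both C-MYC replicates were more than 50 bp from the POLII summit, they were on the same side of it in 96.8% of 4761 members. C-MYC replicate 1 and SOX2 replicate 2 were on the same side in 84.1% of 4094 members. For C-MYC replicate 1 and SOX2 replicate 1 it was 86.3%, but of only 2563 members, since fewer SOX2 replicate 1 summits were that far away. The SOX2 replicates were on the same side in 79.7% of 2527 members. In genome direction the sides were about equal, with 5215 C-MYC replicate 1 summits to the right of POLII and 5183 to the left. The strand of transcription is not given in the lists, so upstream and downstream cannot be assigned.

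**Figure D4:**
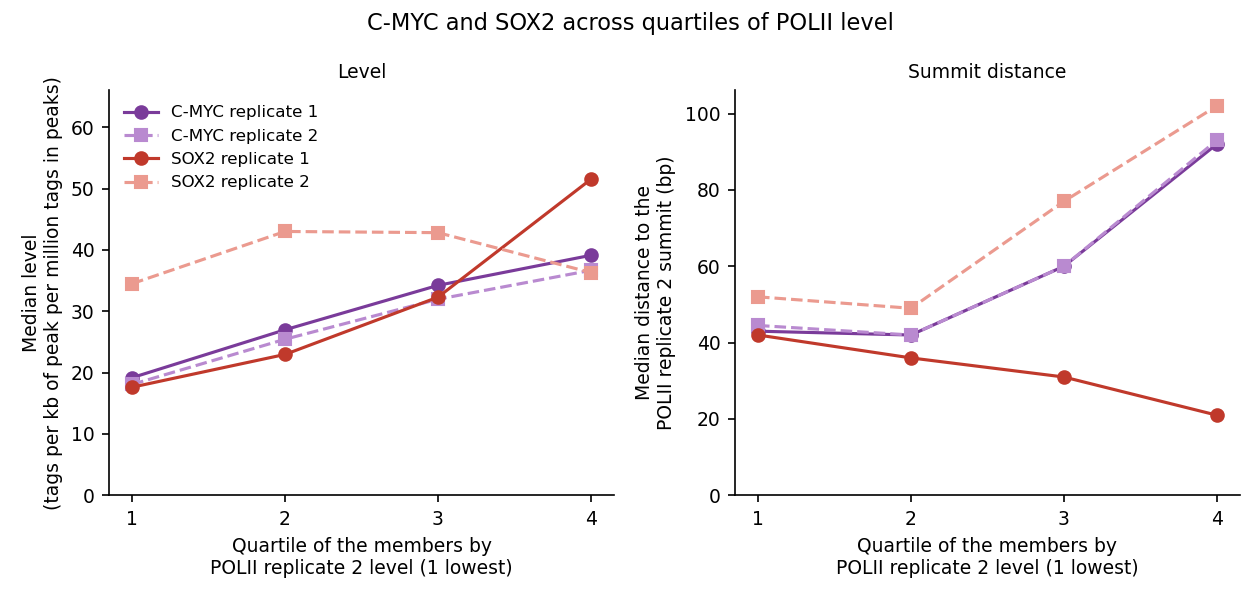
Median level (left, tags per kb of peak per 1000000 tags in peaks) and median distance from the POLII replicate 2 summit (right, bp) of the C-MYC and SOX2 lists in quartiles of the members by POLII replicate 2 level, from 1 (lowest) to 4 (highest). C-MYC rises 2.04 and 2.03 times in level and moves out to 92 and 93 bp, SOX2 replicate 1 rises 2.92 times and moves in to 21 bp, and SOX2 replicate 2 ends near its starting level at 102 bp.

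About as many members had an excess of one factor as had none, and this depended on the replicates used. With levels as defined above, both C-MYC replicates were above both SOX2 replicates at 1332 members (12.7%), beside 12.4% of all regions of the 4 factor lists. Both SOX2 replicates were above both C-MYC replicates at 3856 members (36.9%), beside 37.7% of all such regions. At the other 5273 members (50.4%) the replicates overlapped. The members make up most of the regions behind these shares, so the classes are also given one by one. More C-MYC was found at 15.4% of the regions with both POLII replicates, 5.05% of those without POLII and 9 of the 211 with POLII replicate 1 alone. More SOX2 was found at 38.7%, 40.4% and 52.6% of them. These shares are descriptions, with no test. The split also rests on the scaling. When each list was divided by its median over the regions of the 4 factor lists, the members with more C-MYC numbered 2431 and those with more SOX2 numbered 2729, and C-MYC then made up 47.1% of the members with an excess in place of 25.7%. It rests on the SOX2 replicate too. Without SOX2 replicate 1, 2163 members had more C-MYC and 7395 had more SOX2. Without SOX2 replicate 2, the numbers were 4342 and 4799. Leaving out C-MYC replicate 1 gave 1538 and 4847, and leaving out C-MYC replicate 2 gave 1917 and 4297. With fewer replicates to separate, members with an excess can only be added, so nothing is read from their larger number.

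With the level as first defined, members with an excess of C-MYC had more POLII than the others. Their median POLII level was 31.6, against 24.8 at the members with an excess of SOX2 and 21.3 at the rest. Their C-MYC levels were 57.4 and 54.6 and their SOX2 levels 33.9 and 36.3. The members with an excess of SOX2 had C-MYC levels of 21.0 and 20.1 and SOX2 levels of 31.6 and 37.6. The 2 groups were selected on these levels, so nothing is read from how far they differed in C-MYC or in SOX2. The share of members with more C-MYC went from 6.61% in the lowest POLII quartile to 16.5% in the highest. That with more SOX2 was 38.4% in the lowest quartile, 31.0% in the next, and 40.3% in the highest. An excess of C-MYC asks for high C-MYC levels, and those rose with POLII across the members. The POLII levels of the groups and these shares are therefore not read as a separate result. They were not recounted with the other scaling.

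Large differences were rare among the members. Both C-MYC replicates were at least 2 times as high as both SOX2 replicates at 66 members, and the reverse held at 184. These counts were made for the members only and with the level as first defined. They were not set beside all regions of the 4 factor lists or recounted with the other scaling, so neither is read as particular to the members. The largest C-MYC excess was at chr4:132208610-132209223, a member of 614 bp. It held 191 and 220 C-MYC tags, 33 and 37 SOX2 tags and 57 POLII tags, and the lower C-MYC level (147) was 4.34 times the higher SOX2 level (33.8). All 5 summits of this member lay within 63 bp of the POLII summit. The members at chr11:44274925-44275473 and chr2:37992491-37993255 came next, with excesses of 3.71 and 3.56 times. Their POLII levels were 17.1 and 25.2, beside a median of 23.4 over the members. The member at chr3:137806051-137808030 differed in this respect. It had the highest C-MYC levels of all members, 277 and 284, beside SOX2 levels of 81.5 and 48.6 and a high POLII level of 150. The fifth, at chr4:44078033-44079322, had C-MYC levels of 81.6 and 81.9 and SOX2 levels of 21.6 and 24.7.

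The largest SOX2 excess was at chr12:55811564-55811863, the shortest member, with 300 bp. It held only 9 and 10 C-MYC tags but 54 and 28 SOX2 tags and 69 POLII tags, and SOX2 was 5.41 times as high by level. The count of 9 is the smallest of C-MYC replicate 1 at any member. A pair of members 2236 bp apart on chromosome 11 followed. At chr11:87235928-87237464 there were 31 and 36 C-MYC tags, 265 and 247 SOX2 tags and 723 POLII tags. At chr11:87239700-87241523 there were 25 and 44 C-MYC tags, 260 and 157 SOX2 tags and 674 POLII tags. Both replicates of SOX2 were high at this pair, with excesses of 4.64 and 3.79 times and POLII levels of 74.4 and 69.6. The members at chr18:55921361-55922153 and chr11:70338435-70339558 had excesses of 3.74 and 3.35 times, with POLII levels of 12.9 and 52.9. The former held only 9 and 12 C-MYC tags, again with the smallest count of C-MYC replicate 1, and the latter 27 and 32.

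**Figure D5:**
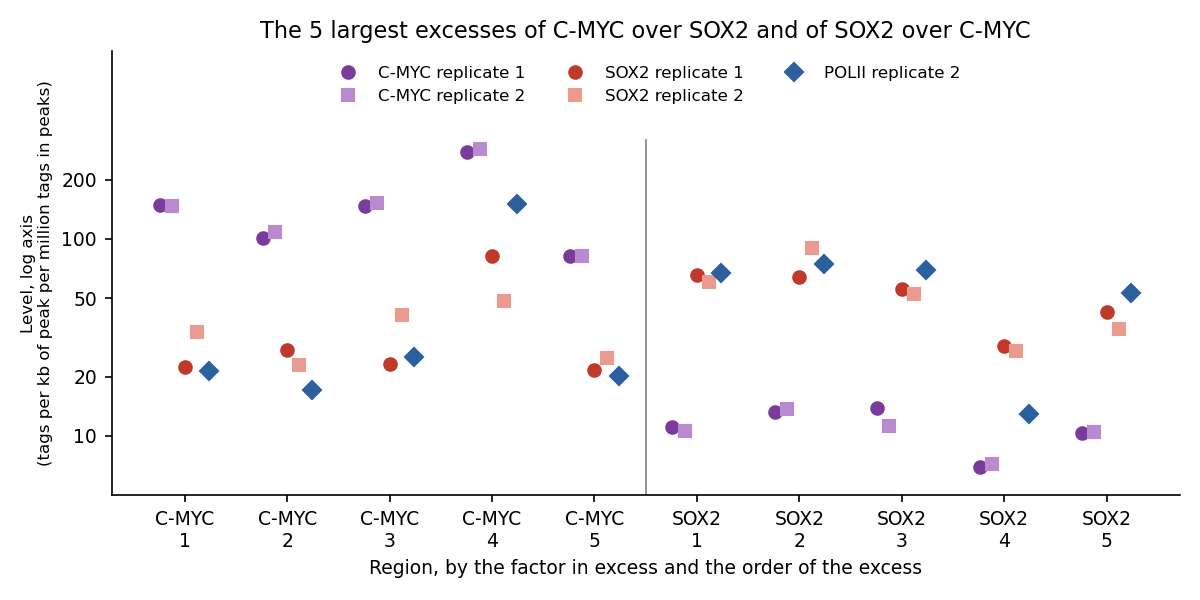
Level of each list (vertical axis, log scale, tags per kb of peak per 1000000 tags in peaks) at the 5 members with the largest excess of C-MYC over SOX2 (left) and of SOX2 over C-MYC (right), in order of the excess, one point per sample. The regions were picked for this separation, from 4.34 times in the first C-MYC region and 5.41 times in the first SOX2 region. POLII replicate 2 lies below both C-MYC replicates in all 5 regions on the left and above both in all 5 on the right.

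The member with the highest mean rank over the 5 lists was at chr17:39979820-39985889. It was 6070 bp long and held 1957 and 2071 C-MYC tags, 6094 and 5952 SOX2 tags and 4056 POLII tags, the highest count of any member in each of the 5 lists. Its SOX2 levels were 364 and 553. Whether its sequence is repeated in the genome was not tested, since no mm9 sequence or annotation was used, so these counts may not be those of a single locus. It is the strongest member by level in each SOX2 replicate, but not by level of C-MYC, with 113 and 108. The next were at chr10:39977118-39979010, with 295 and 336 C-MYC tags, 504 and 138 SOX2 tags and 1348 POLII tags, and at chr7:80682174-80683417, with 257 and 289, 382 and 123, and 821. The members at chr16:87495369-87496751 and chr3:87980720-87982531 followed. In these 4 the levels ran from 73.4 to 164, and all 5 lists were high.

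The longest member lay at chr6:146216871-146236501, with 19631 bp. SOX2 replicate 2 held 5616 tags there and POLII replicate 2 held 2893, but SOX2 replicate 1 held 18 and the C-MYC replicates 200 and 227. The level there was 12.9 in SOX2 replicate 1 and 160 in SOX2 replicate 2. It is 1 of 10 members at chr6:142000001-149000000, the distal end of the chromosome, where the median level was 1.93 times that of the other members in SOX2 replicate 2, 1.91 times in POLII replicate 2 and 1.76 and 1.52 times in C-MYC, but 0.597 times in SOX2 replicate 1. The next longest were at chr10:80638831-80646194 (7364 bp), chr7:86675713-86682033 (6321 bp), the chromosome 17 member and chr12:112905093-112911156 (6064 bp). At the chromosome 10 member the POLII summit was 10 bp from that of SOX2 replicate 1 and 122 bp from that of C-MYC replicate 1, while those of C-MYC replicate 2 and SOX2 replicate 2 were 6193 and 6156 bp away. At the chromosome 7 member all 4 factor summits were within 30 bp of the POLII summit.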

How the data were processed

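The 6 peak lists of iMOP cells (ChIP-seq of POLII, C-MYC and SOX2, 2 replicates of each) were analysed. Input DNA was not analysed here. Since the labels do not say whether replicates came from separate cultures, the one p-value measures only the spread between samples. The authors called peaks in each replicate without pooling and, per the labels, used build mm9. The aligner, the peak caller and the background are not given in the sources used here. The deposited tags are raw counts per peak. The deposited score is 10 times the −log10 of a p-value, at least 50 (p of 1e-05 or less). The deposited fold enrichment is a ratio of a peak over its background. Starts, ends, lengths and summits are deposited in bp. Total reads are not in the lists, so depth is known only as tags in peaks.

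Peaks were merged and counted with python 3.11.15, pandas 2.3.3, numpy 2.4.6 and scipy 1.17.1. bedtools 2.31.1 gave the same 10461 members. Simulated peaks were used to test the counting. Where a region held several peaks of a list, tags and lengths were summed, and the summit and fold enrichment were those of the peak with the most tags. The members, comparisons and settings were chosen with earlier results of these data known. Named regions are the 5 with the highest mean rank, the 5 longest, and the 5 with the largest excess of each factor. No mm9 annotation or sequence was used, so distances to start sites, gene lists, base composition and motifs were not computed.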

Additional observations from a re-analysis of the deposited data

How the results depend on the processing

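Recomputed counts were called the same within 1.5 times, and lengths, ratios and correlations if they kept their direction within 1 SD. For every correlation this SD was 0.162, the spread of rho over the pairs of a C-MYC with a SOX2 list. It is thus not a spread over replicates of the value itself. The difference in summit distance was judged by direction alone, so that 24 bp counted as the same as 7 bp. Of 58 recomputed values for 13 results, 42 were the same by these limits, 14 moved and 2 reversed. The cause of these changes was not tested, except where noted. The number of members fell to 5201 when each list kept its 50% of highest score, as fewer peaks were used, and ran from 9506 to 10601 under the settings for overlap, merging, distance to POLII replicate 1 and equal numbers of peaks. Leaving out a replicate only loosens the rule, and the number was then 10629 to 14816. It was 11708 without POLII replicate 2, a setting chosen after seeing the data. The length was 1436 bp as a mean and 1419 bp with the higher-scoring peaks. Without division by length, the ratio of members to regions without POLII was 2.69 for C-MYC and 2.21 for SOX2. Members with more C-MYC numbered 2431 when lists were scaled by their medians, and 1538 to 4342 when a replicate was left out. Those with more SOX2 numbered 4297 to 7395 in the latter case. Undivided tags gave a rho of 0.35 between the SOX2 replicates, 0.32 of SOX2 replicate 2 with POLII and 0.69 of C-MYC with POLII, and fold enrichment gave 0.35 between the SOX2 replicates. Members near a POLII replicate 1 peak numbered 2470 at 5 kb.

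The difference of C-MYC and SOX2 in distance to the POLII summit (7 bp) became -1 bp with peak centres, -10 bp without SOX2 replicate 1 and 24 bp without SOX2 replicate 2. Paired by replicate number (replicate block), the difference was 7 bp, with an exact permutation p of 1. Leaving out distal chromosome 6 was run for 5 results. It left 10451 members, of which 1320 had more C-MYC and 3652 more SOX2, and ratios to regions without POLII of 1.72 and 1.51. The peaks of this block also left the tag total of each list, so the levels of all members were rescaled. These numbers are therefore not a local effect of the members removed. Depth limits single regions more than medians, since the counting interval of a median member spans 1.46 to 1.63 times.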
